A study of Astyanax mexicanus with 36 samples.

Results

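The genes star, cyp17a1, hsd17b3, hsd17b1 and cyp19a1a carry out steps of ovarian steroid synthesis. They are 5 of the 27420 genes in the deposited count table of Astyanax mexicanus oocytes, taken by symbol, and each symbol belonged to 1 gene (ENSAMXG00000005430, ENSAMXG00000012029, ENSAMXG00000037805, ENSAMXG00000017757 and ENSAMXG00000042616 in the order given). They were followed over 3 populations and 4 oocyte sizes: Pachón cavefish, Molino cavefish and surface fish, each at the categories labelled 40um, 40_100um, 100_300um and 300um, with 3 libraries in each of the 12 groups and 36 in all. The fish were adults of about 520 days, labelled WT and non-treated in every group, and the oocytes came from their right ovaries. The labels do not say whether the 40um and 300um categories are bounds, how many oocytes went into a library or whether the libraries of a group came from separate fish. The p-values therefore measure the spread between these libraries, which may be technical.

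In a fish follicle the oocyte is surrounded by granulosa cells and, outside them, by theca cells, and it is these cells, not the oocyte, that are known for making sex steroids. Cholesterol is carried into the mitochondrion by the protein of star, the step that limits the rate of steroid synthesis. After side chain cleavage and the hsd3b step, the enzyme of cyp17a1 turns progestogens into androgen precursors, typically in theca cells. In mammals hsd17b3 reduces androstenedione to testosterone and hsd17b1 reduces estrone to estradiol. The gonadal aromatase of fish, cyp19a1a, turns androgens into estrogens in granulosa cells, and the estradiol so made reaches the liver, where it induces yolk protein synthesis.

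Reads assigned to genes numbered 2.99 to 6.87 M per library at 40um, 5.95 to 8.72 M at 40_100um, 6.14 to 9.35 M at 100_300um and 5.19 to 7.70 M at 300um. Unassigned reads were 48.2 to 72.9% of a library at 40um and 28.5 to 36.1% at 40_100um. They were 31.2 to 40.9% at 100_300um and 32.6 to 48.9% at 300um, where the highest value lay above the lowest of 40um. Summed markers of follicle and other ovarian cells had their highest medians at 40um, and for some lists the libraries overlapped with those of other sizes. The summed level of 20 granulosa genes, no member among them, was 799 to 5664 CPM (reads relative to the TMM-scaled library size) at 40um, 21.5 to 205 at 40_100um, 133 to 634 at 100_300um and 115 to 701 at 300um. One copy of krt8 had no read at any size. The other copy of krt8 held 46.2% and krt18a.1 17.5% of the reads of this sum, and without the keratins the sum was 187 to 2366, 8 to 88.9, 49.8 to 221 and 72.8 to 229 CPM at the 4 sizes in rising order. Other sums were also high at 40um, among them stroma (11 genes, 322 to 1841 CPM, against 10.4 to 544 at the other sizes), macrophages and granulocytes (15 genes, 210 to 4452, against 17.1 to 290) and theca markers other than members (6 genes, 89.4 to 573, against 23.0 to 79.3). Oocyte markers (11 genes) were at 1790 to 15807 CPM at 40um and 3096 to 11345 at the other sizes, so libraries of every size held oocyte RNA. In such bulk libraries, fewer cells of a type and less RNA per cell cannot be told apart. The library names in the labels run in 3 blocks, which split the 300um, the middle and the 40um libraries, so a contrast with 40um or 300um also sets 1 block against another. CPM values are not divided by transcript length, so levels are compared within a gene and not between genes.

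**Figure D1:**
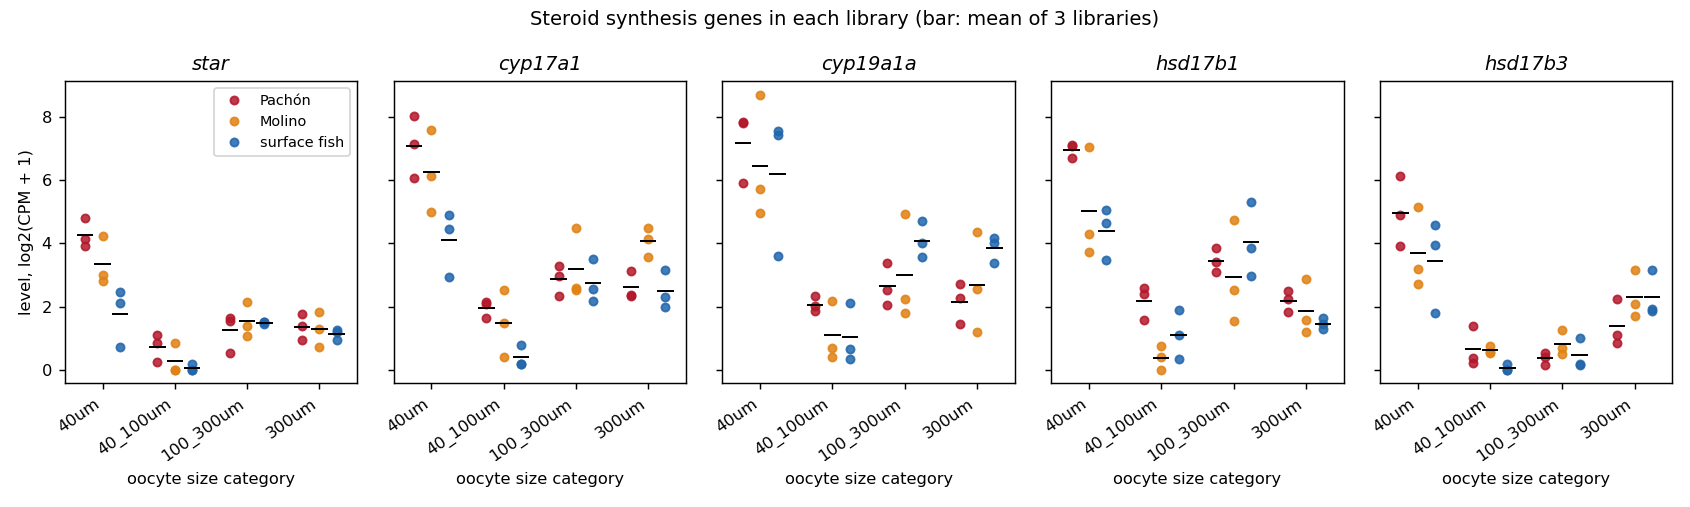
Level of each gene in each of the 36 libraries as log2(CPM + 1), by oocyte size category and population; points are libraries and black bars are means of 3 libraries. In every population each gene has its highest mean at 40um and its lowest at 40_100um, except in Pachón, where hsd17b3 is lowest at 100_300um and hsd17b1 is lowest at 300um (3.62 CPM, against 3.77 at 40_100um).

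All 5 genes fell between 40um and 40_100um, and 4 of them were higher again at 100_300um. Averaged over the populations in a fit of all 36 libraries, the fall to 40_100um was called for 5 of 5 genes (edgeR's quasi-likelihood test, Benjamini-Hochberg adjusted p below 0.05 over all 18259 genes tested). In the same comparison 73.5% of all genes were called and 43.8% were called lower, and the median log2 change was -5.58 for the members and -0.32 for all genes. At 100_300um, against 40_100um, 4 of 5 genes rose, where 33% of all genes were called and 24.6% were called higher, with medians of 2.46 for the members and 0.19 for all genes. At 300um, against 100_300um, hsd17b3 rose and hsd17b1 fell, where 0.4% of all genes were called, and star, cyp17a1 and cyp19a1a changed by -0.27 ± 0.44 (SE), -0.00 ± 0.27 and -0.46 ± 0.58 on the log2 scale with an adjusted p of 1 each.

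Within single populations the first step held throughout. In no population did a 40_100um library reach the level of a 40um library for any of the 5 genes, and all 15 changes were called lower. The share of all genes whose libraries stood apart in this way is not given here. The background was 57.8% of genes called and 33.1% called lower in Pachón, 59.4% and 36.1% in Molino, and 55% and 35.7% in surface fish. These calls held when any 1 library was left out. At the second step 5 of 15 changes were called, all higher: star and hsd17b1 in Molino, and star, cyp17a1 and hsd17b1 in surface fish. There the background was 8.41% called and 6.46% called higher in Pachón, 15.4% and 12.9% in Molino, and 3.91% and 3.9% in surface fish. In Pachón none of the 5 was called at this step, with 0 at an unadjusted p below 0.05 and 0 by DESeq2's Wald test. Which population had calls at this step depended on the libraries fitted. In edgeR fits of only the libraries compared, cyp17a1 (adjusted p = 0.0393) and hsd17b1 (0.013) were called higher in Pachón. In surface fish such a fit lost the calls of star (adjusted p = 0.0576), cyp17a1 (0.059) and hsd17b1 (0.0757). No all-gene share is given for these fits. At the third step none of 15 was called by edgeR, where its background was 0% in Pachón, 0.00548% in Molino and 0% in surface fish. Of the 15, 5 had an unadjusted p below 0.05 and 1 was called by DESeq2's Wald test, for which no all-gene share is given.

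**Figure D2:**
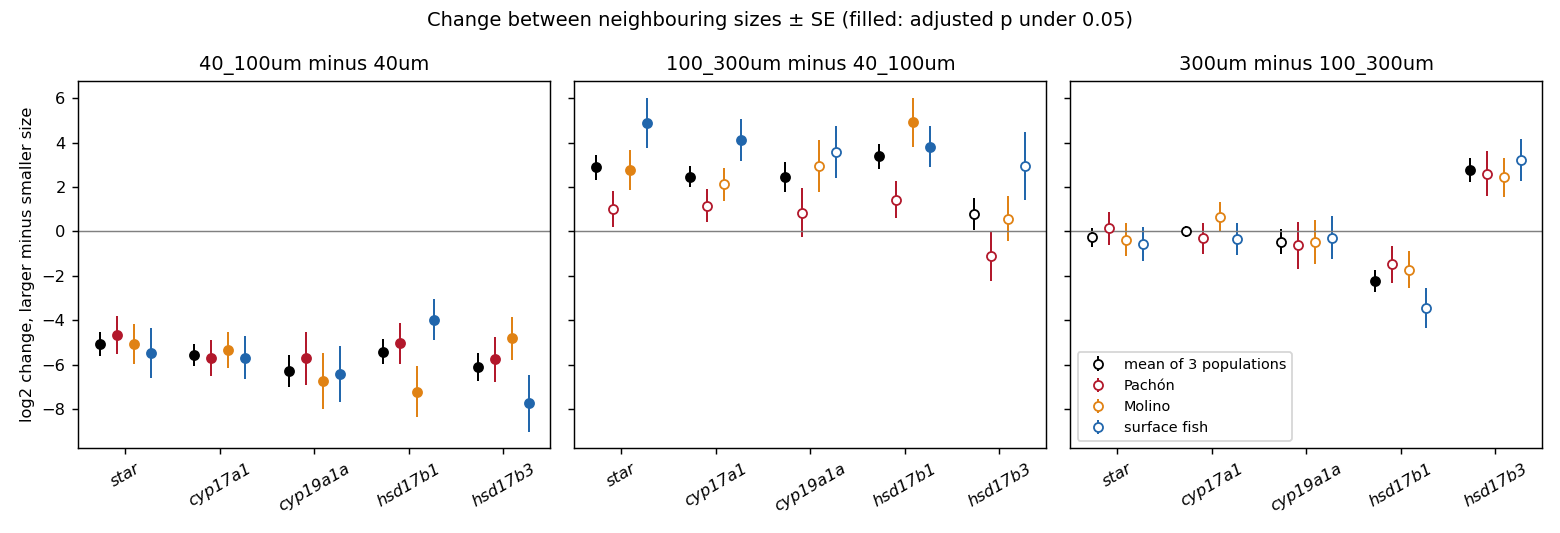
Log2 change between neighbouring sizes, larger minus smaller, for each gene in Pachón, Molino and surface fish and averaged over populations; bars are standard errors and filled points have an adjusted p below 0.05. All changes of the first step lie below 0 and are filled, and at the third step hsd17b1 lies below and hsd17b3 above 0 in every population.

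The cholesterol carrier gene star had few reads beyond 40um. At 40um it was at 13.9, 26.8 and 16.6 CPM in Pachón and at 6.92, 6.02 and 17.9 CPM in Molino, against 0.651, 4.49 and 3.34 CPM in surface fish. At 40_100um it had 14 reads over the 3 Pachón libraries, 6 in Molino, all of them in library 3, and 1 in surface fish. Every Pachón library held at least 1 read and 4 libraries of the other populations held none. A member had no read in 7 combinations of gene and library, all at 40_100um, and some libraries enter for more than 1 gene. In these, 3 reads, the 95% upper limit of a count of 0, would be 0.395 to 0.490 CPM. Intervals and limits of this kind cover counting error only.

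At 100_300um star was at 2.14, 1.93 and 0.440 CPM in Pachón, 1.11, 1.63 and 3.38 in Molino and 1.70, 1.85 and 1.84 in surface fish. At 300um it was at 0.925, 1.59 and 2.43 CPM in Pachón, 0.636, 1.46 and 2.59 in Molino and 0.924, 1.27 and 1.41 in surface fish. The 3 populations overlapped at both sizes. The averaged log2 change was -5.07 ± 0.55 (SE) at 40_100um against 40um (adjusted p = 2.74e-09) and 2.88 ± 0.55 at 100_300um against 40_100um (adjusted p = 0.000237).

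The changes of star within populations at the first step were -4.67 ± 0.84 in Pachón and -5.06 ± 0.91 in Molino. In surface fish the single read at 40_100um stood against 38 at 40um, 57.5-fold lower after scaling with a 95% counting interval of 9.72 to 2330. At the second step the log2 change was 1.03 ± 0.81 in Pachón (adjusted p = 0.498) and 2.75 ± 0.89 in Molino (0.0346). In surface fish 45 reads at 100_300um stood against that single read, 40.9-fold higher with a counting interval of 6.97 to 1650, and the change was called (adjusted p = 0.0179). The Molino call was lost without Molino 100_300um library 2 (2.89, adjusted p = 0.0599) or 3 (2.19, 0.146) and without Molino 40_100um library 1 (2.24, 0.14) or 2 (2.11, 0.182). The surface call was lost without surface 100_300um library 1 (adjusted p = 0.081) and without surface 40_100um library 1 or 3 (up to 0.134).

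The androgen pathway enzyme gene cyp17a1 gave 4 of the 5 calls between populations described further on. At 40um it was at 66.6, 263 and 141 CPM in Pachón and 30.9, 69.8 and 191 CPM in Molino, against 6.67, 21.1 and 28.9 CPM in surface fish, and no cave library fell among the surface libraries. At 40_100um it was at 3.45, 2.13 and 3.25 CPM in Pachón and 0.326, 1.82 and 4.76 CPM in Molino, against 0.132, 0.731 and 0.144 CPM in surface fish. Pachón stood above surface fish in every library, and Molino library 1 lay among the surface libraries.

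At 100_300um cyp17a1 was at 6.86, 8.81 and 4.07 CPM in Pachón, 5.00, 4.70 and 21.2 in Molino and 10.4, 3.56 and 4.92 in surface fish, with all populations overlapping. At 300um it was at 4.1, 7.7 and 4.09 CPM in Pachón and 10.8, 16.6 and 21.4 CPM in Molino, against 3.96, 2.97 and 8.01 CPM in surface fish. The Molino libraries at 300um were all above those of both other populations. The averaged log2 change was -5.58 ± 0.49 (SE) at the first step (adjusted p = 5.35e-11) and 2.46 ± 0.48 at the second (0.000256). Within populations the first step was -5.71 ± 0.82 in Pachón, -5.35 ± 0.81 in Molino and -5.68 ± 0.95 in surface fish. At the second step cyp17a1 changed by 1.15 ± 0.74 in Pachón (adjusted p = 0.381), 2.12 ± 0.75 in Molino (0.052) and 4.11 ± 0.96 in surface fish (0.0182). The surface call was lost without surface 100_300um library 1 (3.44, adjusted p = 0.13) and without surface 40_100um library 1 (3.75, 0.134) or 3 (3.80, 0.101). In Molino a call was gained without Molino 100_300um library 1 (2.45, adjusted p = 0.043) or 2 (2.48, 0.0484) and without Molino 40_100um library 3 (3.04, 0.0331).

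The testosterone-forming dehydrogenase gene hsd17b3 was low at both middle sizes and higher at 300um. At 40um it was at 13.9, 68.5 and 28.6 CPM in Pachón and 5.57, 8.03 and 34.6 CPM in Molino, against 2.44, 14.5 and 23.0 CPM in surface fish, with all populations overlapping. It had 24 reads in all 9 libraries of 40_100um, of which 12 were in Pachón, 11 in Molino and 1 in surface fish. At 100_300um it was at 0.110 to 0.450 CPM in Pachón, 0.417 to 1.40 in Molino and 0.121 to 1.02 in surface fish. The averaged log2 change was -6.11 ± 0.63 (SE) at the first step (adjusted p = 9.88e-10) and 0.79 ± 0.71 at the second (0.406). The first step was -5.76 ± 1.00 in Pachón and -4.82 ± 0.98 in Molino. In surface fish its 1 read at 40_100um stood against 187 at 40um, 283-fold lower with a counting interval of 50.2 to 11237. The 12 reads at 100_300um were 10.9-fold more than that read after scaling (1.61 to 466), which was not called (adjusted p = 0.31).

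At 300um hsd17b3 was at 0.793, 3.67 and 1.15 CPM in Pachón, 2.23, 3.25 and 7.87 in Molino and 2.64, 2.82 and 7.85 in surface fish. Within every population these libraries were all above those of 100_300um. The averaged change at the third step was 2.75 ± 0.55 on the log2 scale (adjusted p = 0.0108). It was 2.60 ± 1.01 in Pachón, 2.44 ± 0.89 in Molino and 3.22 ± 0.95 in surface fish, none of them called (adjusted p of 1, 1 and 0.47). With a block for the library number, since libraries of neighbouring sizes with the same number deviated together, the change was called in Molino (2.43, adjusted p = 0.0407) and in surface fish (3.46, 0.00319). The block also moved all-gene counts by over 1.5 times in 13 of 30 comparisons, so the background given above may not apply. The averaged call was lost in 1 of 18 fits that left out a library, the one without Pachón 300um library 2 (2.44, adjusted p = 0.056).

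The estradiol-forming dehydrogenase gene hsd17b1 moved the other way at the third step. At 40um it was at 139, 102 and 135 CPM in Pachón and 12.1, 18.8 and 132 CPM in Molino, against 10.1, 24.0 and 32.1 CPM in surface fish. All 3 Pachón libraries were above all surface libraries, and of the Molino libraries number 3 alone was near the Pachón level. At 40_100um it was at 4.31, 1.96 and 5.04 CPM in Pachón, 0.326, 0 and 0.680 in Molino and 0.264, 2.68 and 1.16 in surface fish, with Pachón above Molino in every library. The averaged log2 change at this first step was -5.41 ± 0.58 (SE, adjusted p = 1.98e-09), with -5.04 ± 0.92 in Pachón, -7.21 ± 1.14 in Molino and -3.97 ± 0.93 in surface fish.

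At 100_300um hsd17b1 was at 9.55, 13.3 and 7.59 CPM in Pachón, 1.94, 4.70 and 25.9 in Molino and 38.5, 13.5 and 6.86 in surface fish, where single libraries of Molino and surface fish stood far above the rest of their groups. The averaged change at the second step was 3.38 ± 0.56 (SE, adjusted p = 4.57e-05). It was 1.42 ± 0.84 in Pachón (adjusted p = 0.328), 4.90 ± 1.11 in Molino (0.00383) and 3.81 ± 0.92 in surface fish (0.0214). The Molino call was lost without Molino 100_300um library 3 (3.23, adjusted p = 0.054). The surface call was lost without surface 100_300um library 1 (2.74, adjusted p = 0.174), without surface 40_100um library 1 (3.33, 0.149) and without surface 40_100um library 3 (3.71, 0.108).

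At 300um hsd17b1 was at 3.7, 2.57 and 4.6 CPM in Pachón, 1.27, 1.95 and 6.35 in Molino and 1.45, 2.12 and 1.73 in surface fish. The averaged change at the third step was -2.22 ± 0.49 (SE, adjusted p = 0.0332), and with the block for the library number it was -2.16 (adjusted p = 0.000589). It was -1.48 ± 0.83 in Pachón, -1.72 ± 0.84 in Molino and -3.46 ± 0.91 in surface fish (adjusted p of 1, 1 and 0.293), of which the surface change was called with the block (-3.45, adjusted p = 0.00699). The averaged call was lost in 12 of 18 fits without the block that left out 1 library, with changes of -2.29 to -1.66 and adjusted p of 0.0508 to 0.177. The libraries were Pachón 300um 1, 2 and 3, surface 300um 1, 2 and 3, Molino 300um 1 and 2, Pachón 100_300um 1 and 2, Molino 100_300um 3 and surface 100_300um 1. Without the expression filter the adjusted p was 0.0702.

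The opposite course of these paired dehydrogenase genes showed in each library. Of the reads of hsd17b3 and hsd17b1 together, hsd17b3 held 17.6, 58.8 and 20.0% at 300um in Pachón, against 4.49, 2.36 and 1.43% at 100_300um. In Molino the share was 63.6, 62.5 and 55.4% at 300um, against 17.6, 11.5 and 5.13% at 100_300um. In surface fish it was 64.5, 57.1 and 82.0% at 300um, against 0.314, 1.04 and 13% at 100_300um. In 9 of 9 same-numbered pairs of libraries hsd17b3 was higher at 300um and hsd17b1 was lower, which by itself makes the share higher. Both genes were called at this step in the same libraries, so the share and the count of pairs are given as a description. How many of all genes moved 1 way in 9 of 9 pairs is not given here. At 40um the share was 9.14 to 41.8% over the 9 libraries, and at 40_100um it ran from 0 to 100% on few reads.

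**Figure D3:**
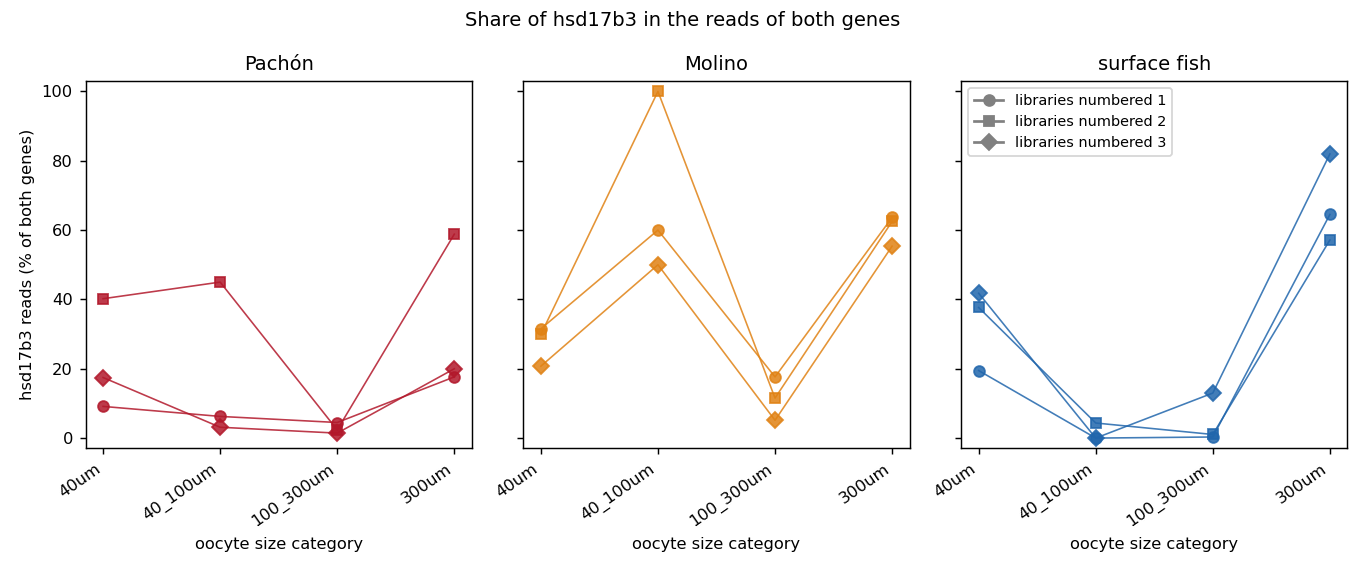
Share of hsd17b3 in the reads of hsd17b3 and hsd17b1 together, in percent, by oocyte size category; each panel is a population and each line joins libraries of the same number. Every line goes up between 100_300um and 300um, where the shares are 17.6 to 82.0%, and the 40_100um shares rest on few reads.

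The aromatase gene cyp19a1a had wide spreads within groups. At 40um it was at 59.1, 223 and 228 CPM in Pachón and 30.0, 51.9 and 415 CPM in Molino, against 11.2, 187 and 173 CPM in surface fish, and the 3 populations overlapped. At 40_100um it was at 2.59, 3.02 and 4.06 CPM in Pachón, 0.326, 0.605 and 3.54 in Molino and 0.264, 3.29 and 0.578 in surface fish, again overlapping. The averaged log2 change at this first step was -6.29 ± 0.71 (SE, adjusted p = 5.87e-09), with no library of 40_100um inside the range at 40um. It was -5.71 ± 1.18 in Pachón, -6.72 ± 1.26 in Molino and -6.42 ± 1.25 in surface fish.

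At 100_300um cyp19a1a was at 3.15, 9.46 and 4.73 CPM in Pachón and 2.50, 3.68 and 29.6 CPM in Molino, against 24.9, 14.9 and 10.9 CPM in surface fish. At 300um it was at 1.72, 5.62 and 3.83 CPM in Pachón and 1.27, 4.88 and 19.4 CPM in Molino, against 9.37, 17.1 and 15.1 CPM in surface fish. At both sizes every Pachón library was below every surface library, and Molino library 3 was above all of them. The averaged change at the second step was 2.45 ± 0.66 (SE, adjusted p = 0.00524), and no single population was called, with 0.84 ± 1.09 in Pachón (adjusted p = 0.713), 2.94 ± 1.16 in Molino (0.0846) and 3.56 ± 1.16 in surface fish (0.0762). With the block the surface change was called (3.93, adjusted p = 0.000803).

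The order of the 12 group means was the same at its top for all 5 genes, with Pachón 40um first, then Molino 40um, then surface 40um. Mean levels in that order were 19.1 ± 6.79, 10.3 ± 6.64 and 2.83 ± 1.97 CPM for star (SD, n = 3 each), 157 ± 99.0, 97.2 ± 83.4 and 18.9 ± 11.3 for cyp17a1, and 37.0 ± 28.2, 16.1 ± 16.1 and 13.3 ± 10.3 for hsd17b3. They were 125 ± 20.3, 54.4 ± 67.5 and 22.1 ± 11.1 CPM for hsd17b1 and 170 ± 96.0, 166 ± 216 and 124 ± 97.5 for cyp19a1a. Surface 40_100um was lowest for 4 of the 5 genes, at 0.0406 ± 0.0703 CPM for star and for hsd17b3, 0.336 ± 0.342 for cyp17a1 and 1.38 ± 1.66 for cyp19a1a, and Molino 40_100um was lowest for hsd17b1 at 0.336 ± 0.340 CPM. How many of all genes had these groups at the top or bottom is not given here. The group means of the granulosa and theca sums at 40um took the same order, and those of stroma did not. At 40um edgeR called no member between populations. Most neighbours in these orders had overlapping libraries. The exceptions were Molino 40um above surface 40um for star and cyp17a1, and Pachón 100_300um above the group that followed it, Pachón 40_100um, for hsd17b1. For cyp19a1a and hsd17b3 every neighbour overlapped the next.

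The granulosa sum moved with the members, and its part in their changes was not tested apart from size. All 9 sums at 40um were above all sums at the other sizes, so the sum and the 40um category cannot be told apart, although without the keratins the lowest 40um sum, 187 CPM in surface library 1, lay below the highest sums of 100_300um (221 CPM) and 300um (229 CPM). The keratins that hold most of its reads are also expressed by other epithelial cells, so the sum is not a measure of granulosa cells alone. The log2 of the sum, and that of the sum without the keratins, were each used as a covariate, both chosen after seeing the data. With the whole sum none of the 5 genes was called at the first step. The averaged log2 changes were then -0.92 for star (adjusted p = 0.632), -1.03 for cyp17a1 (0.522), -2.40 for hsd17b3 (0.363), 0.06 for hsd17b1 (0.998) and 2.05 for cyp19a1a (0.218). At the second step star (1.81, adjusted p = 0.0182) and hsd17b1 (1.69, 0.0222) were still called, and cyp17a1 (1.16, 0.0624) and cyp19a1a (0.21, 0.834) were not. At the third step both calls stood with the covariate, at 2.74 for hsd17b3 (adjusted p = 0.00147) and -1.99 for hsd17b1 (0.00115). No all-gene share is given for the covariate fits. All-gene counts moved by over 1.5 times in 17 of 30 comparisons with the whole sum and 16 without the keratins. The backgrounds given above may therefore not apply to them.

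With the sum without keratins the changes of 4 genes were not called at the first step either, at -0.57 for star (adjusted p = 0.771), 0.01 for cyp17a1 (1), -0.30 for hsd17b3 (0.887) and 0.33 for hsd17b1 (0.898), while that of cyp19a1a was called in the opposite direction (2.93, 0.00529). With it no member was called at the second step, star at 1.40 (adjusted p = 0.0876) and hsd17b1 at 1.26 (0.0942) included, and cyp19a1a changed by -0.65 (0.164). The calls of the third step stood again, at 2.48 for hsd17b3 (adjusted p = 0.000348) and -2.17 for hsd17b1 (9.4e-05). The luteinizing hormone receptor gene lhcgr held 6.0% of the reads of the whole sum and a larger part without the keratins. It was itself called higher at the third step, so neither sum is a steady measure of granulosa cells there.

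**Figure D4:**
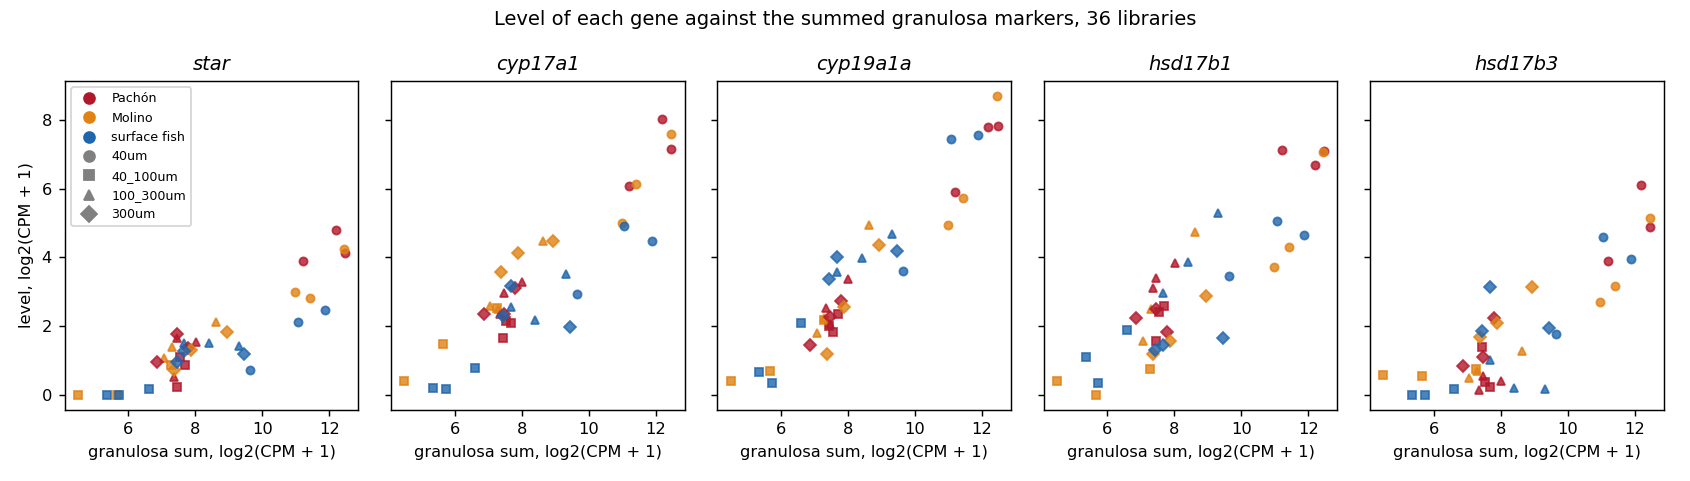
Level of each gene against the summed level of 20 granulosa genes, both as log2(CPM + 1), for the 36 libraries; colours are populations and marker shapes are size categories. The 40um libraries lie furthest to the right in every panel, with sums of 799 to 5664 CPM. Not all of them lie above the other sizes, and surface 40um library 1 is among the levels of other sizes for every gene. For like sums hsd17b3 at 300um lies above its level at 100_300um.

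Set against the granulosa reads of the same library, the members differed less between 40um and 40_100um than their levels did. Per 100 granulosa reads, cyp17a1 had a median of 2.49 reads at 40um, 1.52 at 40_100um, 3.03 at 100_300um and 3.56 at 300um, and cyp19a1a had 4.02, 1.52, 3.69 and 2.44. The medians of star were 0.293, 0.103, 0.838 and 0.625. For hsd17b1 they were 1.5, 1.52, 4.69 and 0.853, and for hsd17b3 0.505, 0.156, 0.257 and 1.39. The fall of hsd17b1 at the third step was not smaller by this measure, as its median levels were 9.55 and 2.12 CPM. The ranges of neighbouring sizes overlapped for all 5 genes. Within Molino, library 3 was the highest of its group in 20 of 20 combinations of gene and size, and it had the highest granulosa sum at all 4 sizes. The members varied together, and so did most same-numbered libraries of neighbouring sizes, so these combinations are not independent. How many of all genes were highest in library 3 is not given here.

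Between populations, the members were mostly not called, and cyp17a1 accounted for 4 of the 5 calls. Cave and surface groups of the same size gave 3 calls among 34 tests, where 0.521 to 33.2% of all genes were called in a comparison. These were 1 of 3 genes tested in Pachón and 1 of 3 in Molino at 40_100um, beside 33.2% and 29.5% of all genes. In Molino at 300um it was 1 of 5, beside 16.5%. Each of these counts is near the share of all genes. Of the 34, 9 had an unadjusted p below 0.05. DESeq2's Wald test gave 7 calls, for which no all-gene share is given. That test called over 1.5 times as many of all genes as edgeR in 13 of 30 comparisons. Pachón and Molino gave 2 calls among 17 tests, where 3.18 to 37.6% of all genes were called, and DESeq2's Wald test also gave 2. The edgeR calls were 1 of 3 genes tested at 40_100um, beside 37.6% of all genes, and 1 of 5 at 300um, beside 34.5%. In 9 further comparisons a gene did not pass the expression filter: star and hsd17b3 at 40_100um and hsd17b3 at 100_300um.

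At 40um, where replicates spread most (common dispersion 0.246, against 0.0509 to 0.0691 at the other sizes), edgeR called none of the 5 genes in any pair of populations. The background was 2.88% for Pachón against surface fish, 0.521% for Molino against surface fish and 3.18% for Pachón against Molino. Pachón was above surface fish in every library for star (2.83 ± 0.70, adjusted p = 0.0614), cyp17a1 (3.12 ± 0.82, 0.0717) and hsd17b1 (2.51 ± 0.82, 0.126). These were the 3 genes with an unadjusted p below 0.05, and DESeq2's Wald test called all 3. How many of all genes had every Pachón library above surface fish is not given here. For hsd17b1 the edgeR call was gained without Molino 40um library 3 (2.51, adjusted p = 0.0317), which also gave a call against Molino (3.03, 0.0375). Molino was above surface fish in every library for star (1.77 ± 0.69, adjusted p = 0.354) and cyp17a1 (2.24 ± 0.79, 0.289), both at an unadjusted p below 0.05, and DESeq2's Wald test called 0. Between Pachón and Molino, 0 genes had an unadjusted p below 0.05 and DESeq2's Wald test called 0. The granulosa sums of these libraries were 2354, 4652 and 5664 CPM in Pachón, 2017, 2737 and 5593 in Molino and 799, 3768 and 2135 in surface fish, which overlapped. Without the keratins they were 1136, 2366 and 2288 CPM in Pachón and 187, 682 and 873 in surface fish, which did not overlap. Those of Molino (376, 627 and 1772) overlapped both. Theca sums without the members were also apart, at 233 to 573 CPM in Pachón and 89.4 to 202 in surface fish. The other marker sums of Pachón and surface fish overlapped. With the whole granulosa sum as a covariate star was called in Pachón against surface fish (2.06, adjusted p = 0.041) and the other members were not. With the sum without keratins star was not called (1.47, adjusted p = 0.278) and cyp19a1a was called lower in Pachón (-2.49, 0.0354).

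At 40_100um, cyp17a1 rose in both cave populations relative to the same surface libraries, by 2.96 ± 0.87 on the log2 scale in Pachón (adjusted p = 0.0186) and by 2.67 ± 0.87 in Molino (0.0337). Backgrounds were high, with 33.2% of genes called for Pachón against surface fish, 29.5% for Molino against surface fish and 37.6% for Pachón against Molino. These values rest on 56 reads in Pachón, 49 in Molino and 8 in surface fish. The Pachón call was lost without Pachón library 1 (2.89, adjusted p = 0.0536) and without surface library 1 (2.58, 0.061) or 3 (2.65, 0.0581). The Molino call was lost without Molino library 2 (2.81, adjusted p = 0.057) or 3 (1.64, 0.207) and without surface library 1 (2.30, 0.0997) or 3 (2.36, 0.0923).

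In the same size hsd17b1 rose in Pachón relative to Molino by 3.32 ± 0.90 (adjusted p = 0.0103), a call that held when any 1 library was left out. Against surface fish hsd17b1 changed by 1.37 ± 0.75 in Pachón (adjusted p = 0.178) and by -1.95 ± 0.93 in Molino (0.131). The granulosa sums at this size were 185, 173 and 205 CPM in Pachón, 21.5, 49.5 and 153 in Molino and 51.9, 95.9 and 39.9 in surface fish, with every Pachón sum above every other. With the sum as a covariate, the Pachón calls were lost for cyp17a1 against surface fish (1.12, adjusted p = 0.373) and for hsd17b1 against Molino (2.18, 0.188), and the Molino call of cyp17a1 stood (2.44, 0.0136). The sum without keratins lost and kept the same calls, at 0.41 (adjusted p = 0.822), 1.53 (0.63) and 3.29 (0.00307) in that order.

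The genes that missed the filter at 40_100um had few reads. For star, 14 reads in Pachón against 1 in surface fish gave a 17.0-fold ratio after scaling with a 95% counting interval of 2.58 to 718, and 6 in Molino gave 6.79-fold with an interval of 0.824 to 312. For hsd17b3, 12 reads in Pachón gave 14.6-fold (2.15 to 622) and 11 in Molino gave 12.4-fold (1.81 to 536) against the same single read. Tested without the filter, neither gene was called against surface fish in Pachón (star adjusted p = 0.0899, hsd17b3 0.0813) or Molino (0.353 and 0.119). The aromatase gene cyp19a1a was not called at this size, and its change in Pachón against surface fish, 1.14 ± 0.86 (adjusted p = 0.332), became a call without surface library 2 (2.78, 0.0466).

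At 100_300um edgeR called none of the 4 genes tested in any pair of populations, with 0 at an unadjusted p below 0.05 and 0 by DESeq2's Wald test. The background was 19.9% for Pachón against surface fish, 14.6% for Molino against surface fish and 25% for Pachón against Molino. The lowest of these values was that of cyp19a1a in Pachón against surface fish, -1.59 ± 0.87 (adjusted p = 0.23), with every Pachón library below every surface library. Without Molino library 3 cyp19a1a was called lower in Pachón (-1.60, adjusted p = 0.0331) and in Molino (-2.48, 0.0178) against surface fish. That library held 29.6 CPM of cyp19a1a, against 2.50 and 3.68 in the other Molino libraries, and its granulosa sum was 394 CPM, against 133 and 155. With the sum as a covariate cyp17a1 was called higher in Molino than in surface fish (1.26, adjusted p = 0.0435), and likewise with the sum without keratins (1.60, 0.0167), which also gave cyp19a1a lower in Pachón than in Molino (-1.001, 0.0285).

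At 300um, cyp17a1 was higher in Molino than in both other populations. It rose by 1.69 ± 0.43 in Molino relative to surface fish (adjusted p = 0.0211) and differed by -1.60 ± 0.42 in Pachón relative to Molino (0.0140), with the Molino libraries at 10.8 to 21.4 CPM above all others. Both comparisons share these 3 Molino libraries. The background was 32.4% for Pachón against surface fish, 16.5% for Molino against surface fish and 34.5% for Pachón against Molino. The Molino call against surface fish was lost without Molino library 2 (1.68, adjusted p = 0.0631) or 3 (1.47, 0.0778) and without surface library 1 (1.56, 0.0523). The call between Pachón and Molino was lost without Pachón library 1 (-1.45, adjusted p = 0.0626) or 3 (-1.44, 0.0564) and without Molino library 3 (-1.38, 0.0539). Granulosa sums were 115, 220 and 175 CPM in Pachón, 165, 234 and 487 in Molino and 172, 701 and 203 in surface fish, which overlapped, and both calls stood with the sum as a covariate (1.69, adjusted p = 0.0217, and -1.56, 0.0288) and with the sum without keratins (1.38, 0.0244, and -1.19, 0.0311).

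No member was called between Pachón and surface fish at 300um, with 1 at an unadjusted p below 0.05 and 1 by DESeq2's Wald test. That gene was cyp19a1a at -1.88 ± 0.78 (adjusted p = 0.096), with every Pachón library below every surface library. It became a call without Molino library 1 (-1.88, adjusted p = 0.0316) or 3 (-1.88, 0.0214), which enter the fit through the shared spread. With the sum without keratins as a covariate cyp19a1a was called lower in Pachón (-1.84, adjusted p = 0.00347) and in Molino (-2.21, 0.00483) than in surface fish. At the same size hsd17b1 was above surface fish in every Pachón library (1.04 ± 0.58, adjusted p = 0.191), and star, cyp17a1 and hsd17b3 overlapped.

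**Figure D5:**
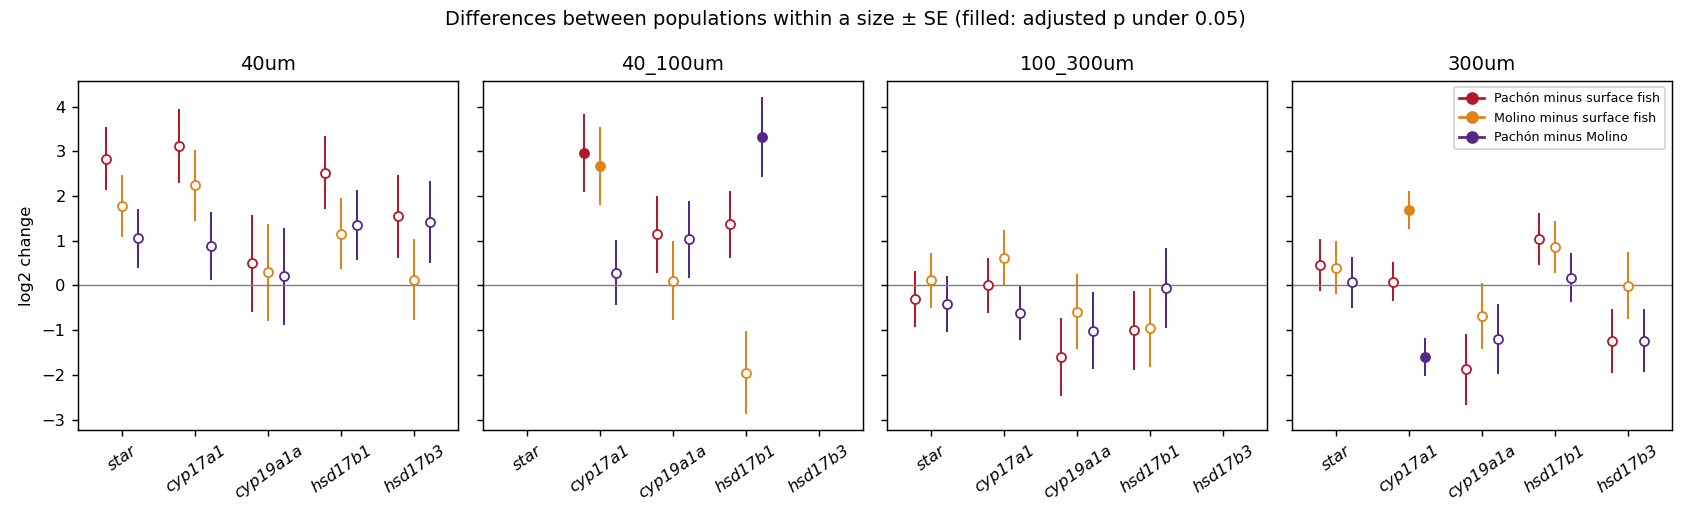
Log2 differences between populations within each size for Pachón minus surface fish, Molino minus surface fish and Pachón minus Molino; bars are standard errors and filled points have an adjusted p below 0.05. Filled points are cyp17a1 in 4 comparisons and hsd17b1 in Pachón minus Molino at 40_100um, and genes that missed the expression filter have no point.

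The balance of the androgen and estrogen step genes differed between cave and surface libraries at most sizes. Of the reads of cyp17a1 and cyp19a1a together, cyp17a1 held 70.5, 57.8 and 51.6% in Pachón and 89.5, 77.3 and 52.4% in Molino at 300um, against 29.7, 14.8 and 34.7% in surface fish. At 100_300um the share was 68.5, 48.2 and 46.2% in Pachón and 66.7, 56.1 and 41.7% in Molino, against 29.6, 19.2 and 31.2% in surface fish. At 40_100um, on 41 to 116 reads a group, it was 41.4 to 57.1% in Pachón and 50.0 to 75.0% in Molino, against 18.2 to 33.3% in surface fish. At 40um it was 53.0, 54.1 and 38.3% in Pachón and 50.8, 57.3 and 31.5% in Molino, against 37.3, 10.2 and 14.3% in surface fish. In 7 of 8 comparisons of a cave with a surface group every cave library was above every surface library, and Molino at 40um was the exception. Both cave groups of a size were set against the same 3 surface libraries, and the surface shares at 40_100um rest on 8 reads of cyp17a1. How often other pairs of genes stood apart in this way is not given here. The share was picked after its values were seen, and it is given as a description.

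Whether a size step differed between a cave population and surface fish was tested as a difference of the log2 changes, and edgeR called 0 of 30 such differences, with 4 at an unadjusted p below 0.05 and 0 by DESeq2's Wald test. The backgrounds were 7.13% for Pachón and 3.57% for Molino at the first step, 0.011% and 0% at the second, and 0% and 0% at the third. At the second step the 5 values for Pachón minus surface fish ran from -4.05 ± 1.90 for hsd17b3 to -2.39 ± 1.22 for hsd17b1, against an all-gene median of -0.11, and 3 of the 4 low p-values were among them. These were hsd17b3 (adjusted p = 0.598), star (-3.84 ± 1.43, 0.479) and cyp17a1 (-2.96 ± 1.24, 0.531). The other was hsd17b1 at the first step in Molino minus surface fish (-3.24 ± 1.47, adjusted p = 0.235). For star and hsd17b3 these differences rest on 1 read each in surface fish at 40_100um.

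The other genes of steroid synthesis and signalling were followed in a list of 83 symbols, of which 61 matched 65 genes and 56 genes were tested across sizes. Side chain cleavage enzyme genes (cyp11a1 and cyp11a2) matched no symbol in the table and were not analysed here. At 40_100um, against 40um, 37 of the 56 genes fell and 9 rose, with a median log2 change of -2.07, so that 82.1% were called beside 73.5% of all genes. At 100_300um, against 40_100um, 25 rose and 2 fell, with a median of 0.80, and 48.2% were called beside 33% of all genes. At 300um, against 100_300um, 1 rose, the luteinizing hormone receptor gene lhcgr (3.05 ± 0.41, adjusted p = 0.000501), which is 1.79% beside 0.4% of all genes. By group the share called at the first step was 87.5% for regulators, 81.8% for receptors, 83.3% for progesterone and corticoid steps, 83.3% for cholesterol supply and 66.7% for the other androgen and estrogen steps, the last of which lies under the 73.5% of all genes. The shares at the second step were 68.8, 63.6, 50, 25 and 22.2% in the same order, with cholesterol supply and the androgen and estrogen steps under the 33% of all genes.

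Regulators and gonadotropin signalling genes took the same direction as the members at the first steps. Of 16 tested, 14 fell at 40_100um, among them the follicle stimulating hormone receptor gene fshr (-5.55 ± 0.37, adjusted p = 3.99e-13), the early response nuclear receptor nr4a1 (-6.87 ± 0.49, 1.3e-12) and lhcgr (-6.47 ± 0.47, 1.63e-12). At 100_300um 11 of the 16 rose, with fshr at 2.76 ± 0.37 (adjusted p = 3.29e-06) and the early response gene egr1 at 2.46 ± 0.48 (0.00025). Of the regulator list, fshr, lhcgr, nr5a2, gata4, foxl2a and foxl2b are also among the 20 granulosa genes. Of 11 steroid receptor genes, 8 fell and 1 rose at the first step and 7 rose at the second. The glucocorticoid receptor gene nr3c1 changed by -4.27 ± 0.23 (adjusted p = 1.86e-14) and then 1.42 ± 0.22 (1.95e-05). The estrogen receptor gene esr1 rose by 2.80 ± 0.42 (adjusted p = 1.49e-05) at the second step.

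Among genes that act beside the members in the enzyme chain, the directions were mixed. Of 6 progesterone and corticoid step genes, 4 fell and 1 rose at the first step and 3 rose at the second. The gene hsd3b2, whose enzyme acts just before cyp17a1, changed by -5.87 ± 0.59 (adjusted p = 5.87e-10) and then 2.39 ± 0.56 (0.00181), and hsd11b2, whose enzyme inactivates cortisol and in fish also acts on androgens, by -5.73 ± 0.49 (3.01e-11) and then 1.73 ± 0.51 (0.0105). The electron donor cyb5a, known in mammals to aid the lyase reaction of CYP17A1, fell by 3.73 ± 0.34 (adjusted p = 1.11e-10) at the first step. Of 12 cholesterol supply genes, 7 fell and 3 rose at the first step and 2 rose and 1 fell at the second, with the endosomal carrier stard3 at -1.79 ± 0.19 (adjusted p = 1.32e-09) and then 0.95 ± 0.18 (0.000253). Of 9 other androgen and estrogen step genes, 3 fell and 3 rose at the first step. Among them hsd17b12a, better known for fatty acid elongation, rose by 1.39 ± 0.17 (adjusted p = 3.23e-08), and hsd17b14 fell by 3.43 ± 0.46 (1.26e-07).

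Between populations the list gave its calls mostly at the sizes with high backgrounds. At 40um, cyp17a2, a paralog of cyp17a1 in fish, rose in Pachón (2.93 ± 0.59, adjusted p = 0.0318) and in Molino (3.36 ± 0.58, 0.0392) relative to surface fish, and fshr rose in Pachón (2.96 ± 0.59, 0.0323). In all, 2 rose and 1 fell of 51 genes in Pachón and 1 rose in Molino, which is 5.88% and 1.96% called beside 2.88% and 0.521% of all genes. At 40_100um 14 of 46 rose and 7 fell in Pachón, and 4 rose and 7 fell in Molino, relative to surface fish, so that 45.7% and 23.9% were called beside 33.2% and 29.5% of all genes. The dehydrogenase gene hsd17b12b rose in Pachón (2.55 ± 0.20, adjusted p = 1.48e-06) and in Molino (2.12 ± 0.20, 6.96e-06), and the lipoprotein receptor gene scarb1 fell in Pachón (-1.20 ± 0.14, 4.41e-05) and in Molino (-0.79 ± 0.14, 0.00114).

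At 100_300um 6 of 52 rose and 6 fell in Pachón, and 5 fell in Molino, so that 23.1% and 9.62% were called beside 19.9% and 14.6% of all genes. At 300um 7 of 51 rose and 10 fell in Pachón, and 4 rose and 4 fell in Molino, or 33.3% and 15.7% beside 32.4% and 16.5% of all genes. The shares of the list at both sizes are close to or under those of all genes. At 300um hsd17b12b rose again in Pachón (2.14 ± 0.20, adjusted p = 6.21e-05) and Molino (1.14 ± 0.20, 0.00358), the carbonyl reductase gene cbr1 fell in Pachón (-3.76 ± 0.54, 0.00105), and fshr rose in Pachón (1.26 ± 0.35, 0.0201) and Molino (1.70 ± 0.35, 0.00775). Relative to Molino, Pachón had 1 of 51 genes higher at 40um, 12 of 46 higher and 4 lower at 40_100um, 5 of 52 higher and 5 lower at 100_300um, and 4 of 51 higher and 9 lower at 300um. The shares called were 1.96, 34.8, 19.2 and 25.5%, each under that of all genes at its size (3.18, 37.6, 25 and 34.5%). At 300um cyp17a2 was lower in Pachón than in Molino (-3.49 ± 1.11, adjusted p = 0.0328), in the same direction as cyp17a1.

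Across the 36 libraries the members varied together, as a description of libraries that share depth, size category and marker sums. Pearson's r of log2(CPM + 1) was between 0.663 and 0.943 for the 10 pairs of members. It was highest for star and cyp17a1 (0.943) and lowest for hsd17b1 and hsd17b3 (0.663). Over the 27 libraries without 40um, star and cyp17a1 still had an r of 0.815, cyp19a1a had 0.763 with star and 0.712 with hsd17b1, and hsd17b3 had 0.561 with cyp17a1 and -0.128 with hsd17b1.

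The genes whose pattern was most like that of each member, by the same r over 36 libraries and, second, over the 27 without 40um, were as follows. For star they were NHS (0.945 and 0.802), cyp17a1 itself (0.943 and 0.815), fstl1b (0.942 and 0.837), trpc6a and dachd. For cyp17a1 they were gmpr2 (0.971 and 0.917), FAM20C (0.958 and 0.846), timp2a, zcchc24 and fstl1b. For hsd17b3 they were smad6b (0.966 and 0.910), slc8a1a (0.961 and 0.916), dhcr7, which encodes the last enzyme of cholesterol synthesis, and cmtm4. For hsd17b1 they were sall1a (0.961 and 0.904), tshz3b (0.961 and 0.902), zgc:113054, spsb4a and fam110d. For cyp19a1a they were FNDC3B (0.973 and 0.928), NECTIN1 (0.972 and 0.921), the inhibin alpha gene inha (0.966 and 0.880), which is a granulosa marker of the list above, mat2ab and PFKL. The gene fstl1b stood in the lists of star and cyp17a1.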

How the data were processed

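The deposited files are integer read counts per Ensembl gene for 36 libraries and a normalised signal table (CPM) from the authors, for 18259 genes, which equals edgeR's TMM-scaled CPM of the counts and was used only in that check. Per the labels' protocols, total RNA was depleted of ribosomal RNA and made into directional libraries with varying input and PCR cycles. STAR 2.7.10b and RSEM were used per the submitters' processing notes. The build was not given in the sources used here. Of the 27420 genes, 16752 had a symbol. The 4 entries of unassigned reads, 28.5 to 72.9% of a library, entered neither library sizes nor tests.

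Genes had to pass filterByExpr (a count of 10 and a total of 15 at least), and counts were scaled with TMM and fitted with robust dispersions in edgeR 4.0.16 (R 4.3.3). Its quasi-likelihood F test was adjusted by Benjamini and Hochberg's method over all genes tested, at a threshold of 0.05. A called change is one below that threshold, and every adjusted p is from edgeR unless named otherwise. The all-gene shares given as background belong to the reported edgeR fits. Calls of members by DESeq2's Wald test, with a block or in other settings have no such share beside them. Nor is a share of all genes given where the libraries of groups are said not to overlap, which describes the members only. Populations were compared within a size in fits of 9 libraries (15917 genes at 40um, 14377 at 40_100um, 15494 at 100_300um and 15214 at 300um), and sizes in 1 fit of all 36 (18259 genes). Depth was 2.99 to 9.35 M assigned reads per library. A standard error is the log2 change over the root of F. For groups with 1 to 3 reads the ratio of scaled counts is given with its exact 95% counting interval. Replicates differed by more than counting noise (chi-square per degree of freedom of at least 2.45), so none was merged.

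Library numbers were checked as pairs by correlating deviations from group means: within populations every same-numbered pair exceeded an r of 0.1 in 8 of 9 comparisons of neighbouring sizes, the exception being Molino 100_300um with 40_100um, and between populations in 0 of 12. The block fit of sizes therefore took each population's library number as a term.

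Alternatives were library totals or DESeq2's size factors as scaling, DESeq2 1.42.0's Wald test, no filter, replicate blocks, 1 fit of all 36 libraries or only those compared, and each library left out. Added after seeing the data were the granulosa sum, whole or without keratins, as a covariate and leaving out libraries with high granulosa sums (Molino number 3 at every size, and surface 100_300um 1 with surface 300um 2). The members, lists and comparisons were chosen with earlier results of these data known. Pathway and marker genes are named by rule, up to 4 called genes per list and contrast with the smallest adjusted p, and like genes are the 5 with the highest r; some genes that these rules name are not reported here. The fits were tested on simulated data.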

Additional observations from a re-analysis of the deposited data

How the results depend on the processing

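Each change of a single member was compared with the reported fit once per processing setting. Its direction was checked only where either fit called it. Of these entries, 1269 stayed on the same side of the threshold, and 47 gained and 61 lost a call without a change of sign. A further 18 changed sign, all of them with a granulosa sum as a covariate. With the whole sum these were, at 40_100um against 40um, cyp19a1a at 2.05 averaged, 1.70 in Pachón, 2.52 in Molino and 1.94 in surface fish, and hsd17b1 at 0.0586 averaged and 1.39 in surface fish. With the sum without keratins they were, at the same step, cyp19a1a at 2.93 averaged, 3.08 in Pachón, 3.69 in Molino and 2.01 in surface fish, hsd17b1 at 0.326 averaged, 0.22 in Pachón and 1.06 in surface fish, cyp17a1 at 0.0127 averaged and 0.962 in Molino, and hsd17b3 at 1.86 in Molino. The others were cyp19a1a at the second step averaged (-0.648) and in Pachón against surface fish at 40um (-2.49). Only cyp19a1a was called in the new direction, and only with the sum without keratins. These calls were at the first step averaged (adjusted p = 0.00529), in Pachón (0.00375), in Molino (0.00863) and in surface fish (0.0487). The other was in Pachón against surface fish at 40um (0.0354). The remaining entries that changed sign were no longer called, so their calls were lost as well.

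Calls between cave populations and surface fish, 3 as reported, were 5 without a filter and 7 with the Wald test, and all 3 reported calls were among them. They were 6 with a replicate block (2 of the 3 among them), 6 in 1 fit of all 36 libraries (1 of the 3), 5 without the Molino libraries numbered 3 (1 of the 3, with 2 higher and 3 lower) and 6 with the sum without keratins (2 of the 3, with 3 higher and 3 lower). The fit of all 36 lost both Molino calls of cyp17a1, at 40_100um (2.69, adjusted p = 0.0709) and 300um (1.72, 0.156). Leaving out the Molino libraries numbered 3 lost the same 2. Calls between Pachón and Molino, 2 as reported, were 1 in the fit of all 36 and 1 with the whole sum, each among the 2.

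Calls of averaged size steps, 11 as reported, were 4 with the whole sum, all among the 11, and 3 with the sum without keratins, of which cyp19a1a was reversed. Within populations, 20 as reported, none of the 20 kept its call and direction with either sum. There was 1 call with the whole sum, hsd17b1 lower at 300um in surface fish, and 6 with the sum without keratins, 3 of them cyp19a1a reversed at the first step. The cause was not tested. With 1 library left out the 4 counts ranged from 1 to 5, 1 to 3, 9 to 11 and 17 to 21, and differences of steps stayed at 0 in every fit.

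The numbers did not pair libraries between populations, where the block added star, cyp17a1 and hsd17b1 in Pachón against surface fish at 40um and cyp19a1a at 300um, and lost cyp17a1 in Molino against surface fish at 40_100um (2.46, adjusted p = 0.0639). It changed the averaged size steps by no call. In Molino at the second step it added cyp17a1 (2.15, adjusted p = 0.00863) and cyp19a1a (2.92, 0.00839). The libraries of that step in Molino were the exception in the check of pairs, with a lowest r of 0.0283. Counts over all genes moved by over 1.5 times in 17 of 30 comparisons with the whole sum, 16 with the sum without keratins, 13 with the block, 13 with the Wald test, 11 of 18 with only the libraries compared, 6 of 12 in the fit of all 36, and 2 to 6 of 30 with the other settings. Library totals moved the all-gene median most, by up to 0.37. Precision is set by few reads at 40_100um and by the replicate spread at 40um.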
